A study of Mus musculus with 28 samples.

Results

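Regulatory T (Treg) cells from murine glioblastoma (GBM) were compared with Treg cells from the spleen after combined treatment with αPD1 and αGITR. The comparison covered the 7 GBM libraries and the 8 named splenic libraries labelled with this treatment, out of 28 libraries in the series. The labels give this treatment to 9 splenic libraries, and 1 of them, 72_a, was not analysed here because its name matched none of the columns used. Genes entered when their mean TPM, an abundance scaled for transcript length and library size, was above 10 in either tissue, which left 7506 of the 53801 features in the table. All mice carried CT2A, a mouse GBM line grown in the forebrain, and by the study's methods tumor lines were implanted in C57BL/6 mice, with female and male animals used in the study and no age given for these libraries. Antibodies were given as 4 doses of 250 µg per mouse, 1 every 3 days, and tissue was taken 2 days after the last dose. The methods name the clones RMP1-14 for αPD1, which binds the inhibitory receptor PD1, and DTA-1 for αGITR, an agonist of the co-stimulatory receptor GITR. Treg cells were sorted as TCR+CD4+CD25hi CD127lo cells with CD8+ cells gated out, and by the submitters' description the spleens came from different mice, as did the tumors. Whether a spleen and a tumor came from the same mouse is not given in the sources used here. The comparison most like this one, in 5 GBM and 7 splenic libraries from CT2A-bearing mice given the control antibody (IgG2a), is described at the end with the test of the difference between treatments.

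Treg cells depend on the transcription factor Foxp3 and on interleukin-2, and they restrain other T cells through inhibitory receptors, suppressive cytokines and the removal of extracellular ATP. In lymphoid organs most of them are resting cells that carry the homing receptors of naive lymphocytes. In tumors and other tissues Treg cells take on an effector state, with co-stimulatory receptors of the TNF receptor family, tissue-homing chemokine receptors and, at times, features of T helper 1 (Th1) cells. The comparison asks which transcripts separate the 2 compartments once PD1 and GITR have both been engaged by antibody.

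The libraries differed in more than their tissue. T cell receptor genes, summed over 6 genes, ranged from 245 to 3314 TPM in spleen and from 1292 to 3703 TPM in GBM. The 4 splenic libraries lowest in this sum (72_b, 70_a, 70_b and 73_a, named by the number and letter of their labels) lay at 245 to 852 TPM, below every GBM library, and splenic library 72_c at 918 TPM did so as well. Summed over 8 erythroid markers, which belong to red cell precursors of the spleen, splenic libraries held 25.4 to 28710 TPM and GBM libraries 0.30 to 201 TPM, and 4 splenic libraries (73_a, 72_c, 74_a and 80_a) were above 10000 TPM. Of these 8 markers 7 passed the filter and 6 were called lower in GBM (against 1.61% of all genes compared), with a median log2 difference of -6.37. Of the 7, 5 had passed through their splenic mean alone. The sum of 22 macrophage and microglia markers was 51.6 to 969.95 TPM in spleen and 218 to 6978 TPM in GBM, with GBM libraries 73_a (6978 TPM) and 74_a (2415 TPM) above the others. Of these 22 markers 13 passed the filter, and 4 were called higher in GBM (30.8%, against 15.8% of all genes compared), among them *Cx3cr1*, *C1qa* and *Ctss*. The other 9 were not called, and of these only *Lyz2* (-1.15) and *Csf1r* (-0.39) had log2 differences below 0. The rest of them were positive, up to 2.38 for *C1qc*. Over the 13 the median was 1.95, against 0.95 over all genes compared. *Itgam* and *Mrc1* were listed at or near 0 in both tissues. The results below were therefore also computed without the splenic libraries lowest in T cell receptor genes, without those high in erythroid markers and without those high in macrophage markers. The part of other cells in the results was not tested beyond these omissions, and in bulk libraries fewer cells of a type and less RNA per cell cannot be told apart.

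**Figure D1:**
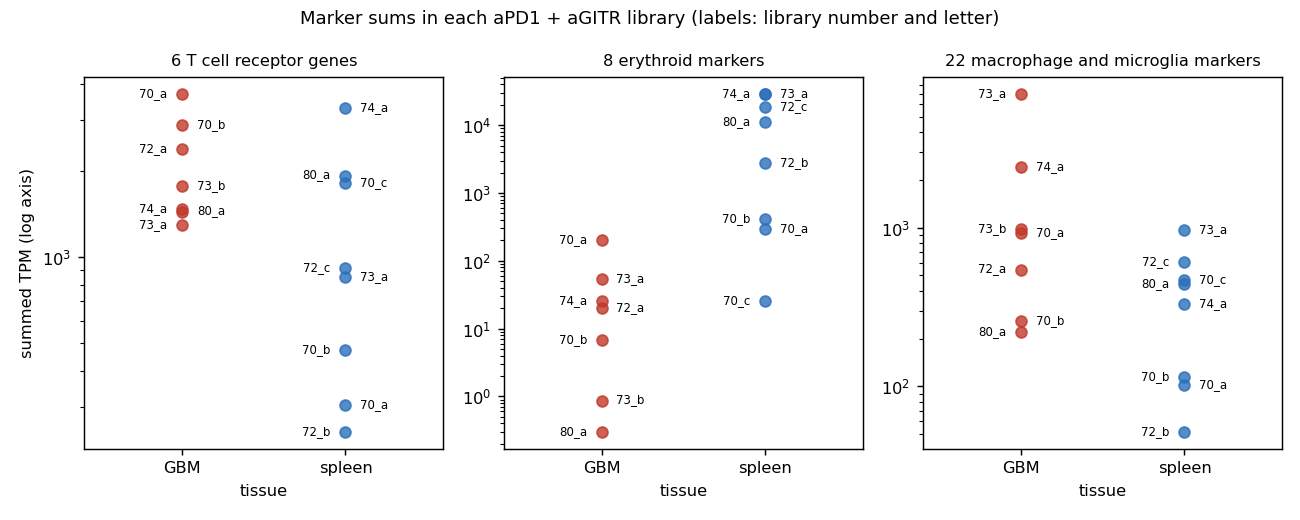
Summed TPM, on a log axis, of 6 T cell receptor genes, 8 erythroid markers and 22 macrophage and microglia markers in each library after αPD1 + αGITR, with 1 point per library and its label number and letter beside it. The 4 splenic libraries lowest in T cell receptor genes sit below every GBM library, and erythroid markers reach 28710 TPM in spleen against 201 TPM in GBM.

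Between the tissues 1310 of 7506 genes (17.5%) differed at an adjusted p under 0.05 in limma. This count depended on single libraries, being 591 without GBM library 70_b and 2279 without splenic library 73_a, and it was 360 without the GBM libraries high in macrophage markers and 3147 without the splenic libraries high in erythroid markers. Of the 1310 genes, 1189 were higher in GBM Treg cells (15.8% of the genes compared) and 121 were lower (1.61%). At the threshold of the study, an unadjusted p under 0.05 with a change over 2-fold, 3020 genes differed, 2546 of them higher. The groups of libraries did not overlap at all for 225 genes (3.00%), of which 222 were higher in GBM. The median log2 difference over all genes compared was 0.95, a shift toward GBM shared by most transcripts, and values below are to be read against it. With quantile normalization, which gives every library the same distribution, the median was 0.15 and the split turned, with 443 genes higher (5.90%) and 651 lower (8.67%) in GBM. Without the 4 splenic libraries lowest in T cell receptor genes 607 genes were called, 536 of them higher, and the median was 0.52. A gene that passed the filter through GBM alone had to have the higher mean TPM there, and 1563 genes entered in that way against 977 through spleen alone. For genes entered through GBM alone the filter favoured, but did not fix, a log2 difference above 0. Counts and medians over the lists below are therefore descriptions, and members that entered through GBM alone are given where they made up much of a list.

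**Figure D2:**
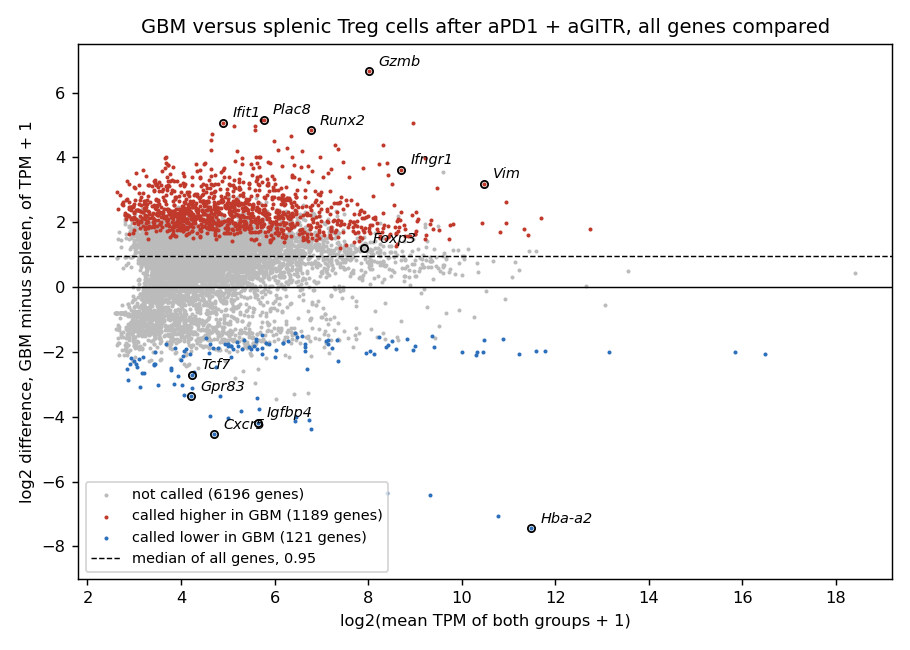
Log2 difference between GBM and splenic Treg cells (7 and 8 libraries, log2 of TPM + 1) against the log2 mean TPM of both groups for the 7506 genes compared, with genes called higher in red, called lower in blue and not called in grey. The cloud is centred at the dashed line at 0.95 rather than at 0, *Gzmb* stands highest at 6.67, and the lowest points are hemoglobin genes of the erythroid list.

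The genes of the sort and the antibody targets came first, since they check the labelled cell type. *Foxp3* (chromosome X, 7573644 to 7595245, positions being those of GRCm38) was listed at 165 to 440.4 TPM in GBM (median 301) and at 21.5 to 364 TPM in spleen (median 149.8). Every library held the transcript and the tissues overlapped, with a log2 difference of 1.19 (SE 0.52, adjusted p = 0.0936) and an exact permutation p of 0.0204. *Il2ra*, which encodes CD25 (chromosome 2, 11642807 to 11693193), was listed at 128 to 224 TPM in GBM (median 157) and at 17.5 to 117 TPM in spleen (median 57.2). The tissues did not overlap for this gene, with a log2 difference of 1.62 (SE 0.47, adjusted p = 0.0263), although the call was lost without GBM library 70_a (1.62) or GBM library 72_a (1.55), under quantile normalization (1.00, adjusted p = 0.0849) and without the 4 splenic libraries lowest in T cell receptor genes (1.31, adjusted p = 0.0958). *Cd4* (chromosome 6, 124864692 to 124888221) was listed at 92.6 to 204 TPM in GBM (median 131) and at 49.0 to 148 TPM in spleen (median 89.5). For *Cd4* the log2 difference was 0.66 (SE 0.42, adjusted p = 0.229). *Il7r*, which encodes CD127 (chromosome 15, 9505788 to 9530176), was listed at 3.95 to 38.4 TPM in GBM (median 18.4) and at 2.14 to 57.9 TPM in spleen (median 7.90). *Cd8a* did not pass the filter, with at most 2.67 TPM in any GBM library and 3.94 TPM in any splenic one. The other CD8 marker, *Cd8b1*, passed through GBM alone. It was listed at 2.61 to 36.3 TPM in GBM (median 7.42) and at 0.280 to 25.2 TPM in spleen (median 2.31). For *Cd8b1* the log2 difference was 1.29 (adjusted p = 0.171). The libraries of both tissues held *Foxp3*, *Il2ra* and *Cd4*, with *Foxp3* and *Cd4* not called between them and the sign of *Cd4* and *Il7r* changing with the scaling.

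Transcripts of both antibody targets were higher in GBM Treg cells. *Tnfrsf18*, which encodes GITR (chromosome 4, 156026164 to 156028895), was listed at 186 to 515 TPM in GBM (median 450.2) and at 0 to 278 TPM in spleen (median 33.6). In 5 of 7 GBM libraries it exceeded the splenic range, with a log2 difference of 3.67 (SE 0.80, adjusted p = 0.00562). *Tnfrsf18* was not called with libraries of the same number averaged (2.97, adjusted p = 0.0574) or with no filter on low values (adjusted p = 0.0593). *Pdcd1*, which encodes PD1 (chromosome 1, 94038305 to 94052553), was listed at 43.2 to 242 TPM in GBM (median 125) and at 0.620 to 59.2 TPM in spleen (median 34.9), and the splenic range was exceeded in 6 of 7 GBM libraries. Its log2 difference was 2.47 (adjusted p = 0.0160), and without the 4 splenic libraries lowest in T cell receptor genes it was 1.5 and no longer called (adjusted p = 0.0609).

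The gene with the largest rise in GBM Treg cells was *Gzmb* (chromosome 14, 56258838 to 56262260), which encodes the cytotoxic protease granzyme B. It was listed at 370.1 to 949 TPM in GBM (median 415) and at 0.290 to 35.3 TPM in spleen (median 3.79). For *Gzmb* the log2 difference was 6.67 (SE 0.58, adjusted p = 1.84e-07). The lowest GBM library, at 370.1 TPM, lay far above the highest splenic library, 70_c, at 35.3 TPM. *Plac8* (chromosome 5, 100553725 to 100572245) was listed at 59.5 to 157 TPM in GBM (median 111) and at 0 to 9.19 TPM in spleen (median 2.15). For *Plac8* the log2 difference was 5.17 (SE 0.59, adjusted p = 1.23e-05). *Sv2c*, a synaptic vesicle protein gene (chromosome 13, 95954594 to 96132577), was listed at 22.9 to 79.5 TPM in GBM (median 35.7) and at 0 to 2.96 TPM in spleen (median 0.610). For *Sv2c* the log2 difference was 4.72 (SE 0.55, adjusted p = 1.36e-05). Both genes separated the tissues completely, and splenic libraries held at most 9.19 and 2.96 TPM of them. *Runx2*, a transcription factor of the Runt family (chromosome 17, 44495987 to 44814797), was listed at 90.5 to 328 TPM in GBM (median 177) and at 0.560 to 55.4 TPM in spleen (median 2.04). For *Runx2* the log2 difference was 4.83 (SE 0.76, adjusted p = 0.000349). *Apol9b*, an apolipoprotein L gene (chromosome 15, 77729039 to 77736382), was listed at 35.7 to 99.3 TPM in GBM (median 63.7) and at 0 to 26.1 TPM in spleen (median 0), with a log2 difference of 4.96 (SE 0.70, adjusted p = 0.000121), and reads of its near-identical neighbour *Apol9a* could have been split between them. The remaining 5 of the 10 largest non-overlapping rises (*Ifit1*, *Ifit3*, *Nfil3*, *Ccr8* and *Ly6a*) are described with their groups. Of these 10, 7 entered through GBM alone, so that the filter set the direction of their mean TPM. The exceptions were *Runx2*, *Ccr8* (at a splenic mean of 10.0075 TPM, just above the minimum) and *Ly6a*. Over all 71 called genes that the naming rule took in, 40 kept their call in every alternative in which they were tested and 59 kept it whichever single library was left out, while 10 lost it under quantile normalization and 20 without the 4 splenic libraries lowest in T cell receptor genes. Those 20 include *Trac* and *Cd3e*, which belong to the genes that chose the libraries. Of the 71 genes 19 entered through GBM alone, and beside the 7 above these were *Bnip3*, *Ccl4*, *Ctsw*, *Cxcl10*, *Cxcr6*, *Fgl2*, *Havcr2*, *Ly6c2*, *Maf*, *Mx1*, *Slc16a3* and *Xiap*.

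Interferon-stimulated genes formed the group with the most calls. Of 27 listed genes 26 passed the filter, 23 were called higher and none lower, with a median log2 difference of 2.81 against 0.95 over all genes. The share called higher was 88.5%, against 15.8% of all genes, and for 13 of the 26 the tissues did not overlap, against 3.00% of all genes. Of the 26, 12 entered through GBM alone, and of the other 14 genes 12 were called higher. With quantile normalization 20 were called higher and the median was 1.97 against 0.15, and without the 4 splenic libraries lowest in T cell receptor genes the numbers were 16 and 2.20 against 0.52. *Ifit1* (chromosome 19, 34640871 to 34650009), an RNA-binding antiviral protein gene, was listed at 23.8 to 98.3 TPM in GBM (median 45.8) and at 0 to 4.57 TPM in spleen (median 0.0600). For *Ifit1* the log2 difference was 5.07 (SE 0.58, adjusted p = 1.23e-05). Its relative *Ifit3* (chromosome 19, 34583531 to 34588731) was listed at 23.1 to 143 TPM in GBM (median 116) and at 0 to 15.8 TPM in spleen (median 2.10), with a log2 difference of 4.85 (SE 0.63, adjusted p = 6.84e-05), where reads of a near-identical copy could have been counted in part. *Mx1* (chromosome 16, 97447035 to 97462907), an antiviral GTPase gene, was listed at 11.1 to 41.96 TPM in GBM (median 17.8) and at 0 to 3.80 TPM in spleen (median 0.1). For *Mx1* the log2 difference was 3.99 (SE 0.60, adjusted p = 0.000236). None of these 3 genes overlapped between the tissues, and splenic libraries held at most 4.57 TPM of *Ifit1* and 3.80 TPM of *Mx1*. The other called members had log2 differences between 1.45 and 4.02.

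Interferon-stimulated genes are often bound upstream of their start by STAT and IRF factors at paired GAAA repeats, so the 250 bases before the start were searched for the letters GAAA, any 2 bases (NN) and GAAA again on both strands, with overlapping matches counted separately. Promoters of 20 of the 27 genes were matched by symbol in RefSeq (GRCm38.p6), with 1 promoter taken per gene, and 11 of them (55%) held the motif. Among all 27025 promoters 3.04% held it, among the 5180 matched promoters of genes compared 3.28%, and among the 862 matched promoters of genes called higher in GBM 6.5%. The promoters of 4 of the genes that rose are printed up to the base before the start, since they show how the repeats are placed, with every match in capitals. A match is a description of the letters and does not show binding.
Ifit1, chr19:34640739-34640888, plus strand: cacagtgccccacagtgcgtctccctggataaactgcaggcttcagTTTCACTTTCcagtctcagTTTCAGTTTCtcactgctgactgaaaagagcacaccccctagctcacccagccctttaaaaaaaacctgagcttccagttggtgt
Ifit3, chr19:34583363-34583528, plus strand: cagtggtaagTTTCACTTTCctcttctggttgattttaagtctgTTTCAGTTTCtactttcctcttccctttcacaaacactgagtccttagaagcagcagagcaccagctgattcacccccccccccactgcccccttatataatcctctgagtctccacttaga
Isg15, chr4:156200819-156200968, minus strand: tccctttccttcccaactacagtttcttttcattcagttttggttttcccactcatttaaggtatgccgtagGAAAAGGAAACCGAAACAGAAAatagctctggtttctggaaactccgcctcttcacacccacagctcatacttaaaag
Irgm1, chr11:48871421-48871570, minus strand: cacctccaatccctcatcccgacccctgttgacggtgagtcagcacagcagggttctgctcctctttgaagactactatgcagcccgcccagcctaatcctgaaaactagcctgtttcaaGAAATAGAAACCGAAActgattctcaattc
In *Ifit1* and *Ifit3* the matches lay on the reverse strand at 104 and 85 and at 156 and 122 bases before the start. In *Isg15*, a ubiquitin-like modifier gene, 3 overlapping matches began 78, 72 and 66 bases before it. *Isg15* was listed at 8.93 to 67.7 TPM in GBM (median 24.8) and at 0 to 16.8 TPM in spleen (median 4.27), with a log2 difference of 2.66 (SE 0.68, adjusted p = 0.0145), and *Irgm1*, an interferon-inducible GTPase gene, was listed at 25.0 to 100.1 TPM in GBM (median 52.9) and at 0.0600 to 18.7 TPM in spleen (median 7.84). For *Irgm1* the log2 difference was 2.95 (SE 0.63, adjusted p = 0.00468). Both were called, while *Isg15* was not under quantile normalization (1.80, adjusted p = 0.0689) or without the 4 splenic libraries (1.81, adjusted p = 0.105). These 2 genes were chosen for their promoters after their values were seen.

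Most genes of the MHC class I pathway rose. All 17 listed genes passed the filter, 13 were called higher (76.5%, against 15.8% of all genes) and none lower. Their log2 differences ran from 1.36 to 2.37 with a median of 1.92 against 0.95 over all genes, and the tissues did not overlap for 7, against 3.00% of all genes. Quantile normalization left 11 calls with a median of 1.46 against 0.15, while 5 were called without the 4 splenic libraries lowest in T cell receptor genes, with a median of 1.29 against 0.52. *H2-D1*, a class I heavy chain gene with near-identical relatives, was listed at 1779 to 3837 TPM in GBM (median 3168) and at 277 to 1762 TPM in spleen (median 758). *Tap1*, the peptide transporter gene, was listed at 309 to 539 TPM in GBM (median 355) and at 13.8 to 233 TPM in spleen (median 95.3). *Psmb8*, an immunoproteasome subunit gene, was listed at 471 to 1304 TPM in GBM (median 839) and at 29.5 to 454 TPM in spleen (median 212). None of the 3 overlapped between the tissues, with log2 differences of 1.98, 2.19 and 2.33 (adjusted p = 0.00726, 0.00848 and 0.0102), and *Psmb8* lost its call without the 4 splenic libraries (1.34, adjusted p = 0.0542).

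Cytotoxic granule genes and Th1 genes were also mostly higher in GBM. Of 16 granule genes 11 passed the filter and 9 were called higher (81.8%, against 15.8% of all genes), none lower, with a median of 2.56. Under quantile normalization there were 6 calls and a median of 1.76, and without the 4 splenic libraries 5 calls and 2.08. Through GBM alone 7 of the 11 had entered, and 3 of the other 4 were called. Beside *Gzmb*, *Nkg7*, a granule membrane protein gene (chromosome 7, 43437073 to 43438249), was listed at 138 to 531 TPM in GBM (median 304) and at 3.39 to 70.4 TPM in spleen (median 9.85). For *Nkg7* the log2 difference was 4.39 (SE 0.61, adjusted p = 0.000117). *Ctsw*, a lymphocyte cathepsin gene, was listed at 37.0 to 147 TPM in GBM (median 72.05) and at 1.05 to 20.7 TPM in spleen (median 8.18). For *Ctsw* the log2 difference was 3.47 (SE 0.59, adjusted p = 0.000749). Both genes separated the tissues completely. Of 20 Th1 genes 15 passed and 10 were called higher (66.7%), none lower, with a median of 2.64. Under quantile normalization there were 8 calls and a median of 1.79, and without the 4 splenic libraries 7 calls and 2.44. Of the 10 that had not entered through GBM alone, 7 were called. *Ifngr1*, which encodes the ligand-binding chain of the interferon-γ receptor (chromosome 10, 19591949 to 19610229), was listed at 515 to 1102 TPM in GBM (median 804) and at 27.5 to 162 TPM in spleen (median 62.7). For *Ifngr1* the log2 difference was 3.62 (SE 0.45, adjusted p = 4.28e-05). *Cxcr3*, the receptor of interferon-induced chemokines, was listed at 58.6 to 191 TPM in GBM (median 134) and at 0.650 to 38.7 TPM in spleen (median 21.4). For *Cxcr3* the log2 difference was 2.85 (SE 0.60, adjusted p = 0.00428). *Havcr2*, which encodes the inhibitory receptor TIM-3, was listed at 5.82 to 22.1 TPM in GBM (median 18.3) and at 0 to 2.61 TPM in spleen (median 0.400). For *Havcr2* the log2 difference was 3.16 (SE 0.60, adjusted p = 0.00204). For all 3 genes the tissues did not overlap. *Tbx21*, which encodes the Th1 factor T-bet, *Il12rb1*, a chain of the receptor for interleukin-12, and *Stat4*, which carries its signal, lie outside the naming rule and were chosen after their values were seen. *Tbx21* was listed at 62.2 to 169 TPM in GBM (median 119.8) and at 0 to 51.1 TPM in spleen (median 15.4). For *Tbx21* the log2 difference was 3.73 (SE 0.83, adjusted p = 0.00606). *Il12rb1* was listed at 80.1 to 152 TPM in GBM (median 109) and at 1.71 to 57.4 TPM in spleen (median 21.8). For *Il12rb1* the log2 difference was 2.74 (SE 0.61, adjusted p = 0.00618). *Stat4* was listed at 5.73 to 46.7 TPM in GBM (median 20.6) and at 3.46 to 33.0 TPM in spleen (median 16.1), with a log2 difference of 0.52 (SE 0.55, adjusted p = 0.459), so the receptor subunit and T-bet transcripts were called while that of *Stat4* was not.

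**Figure D3:**
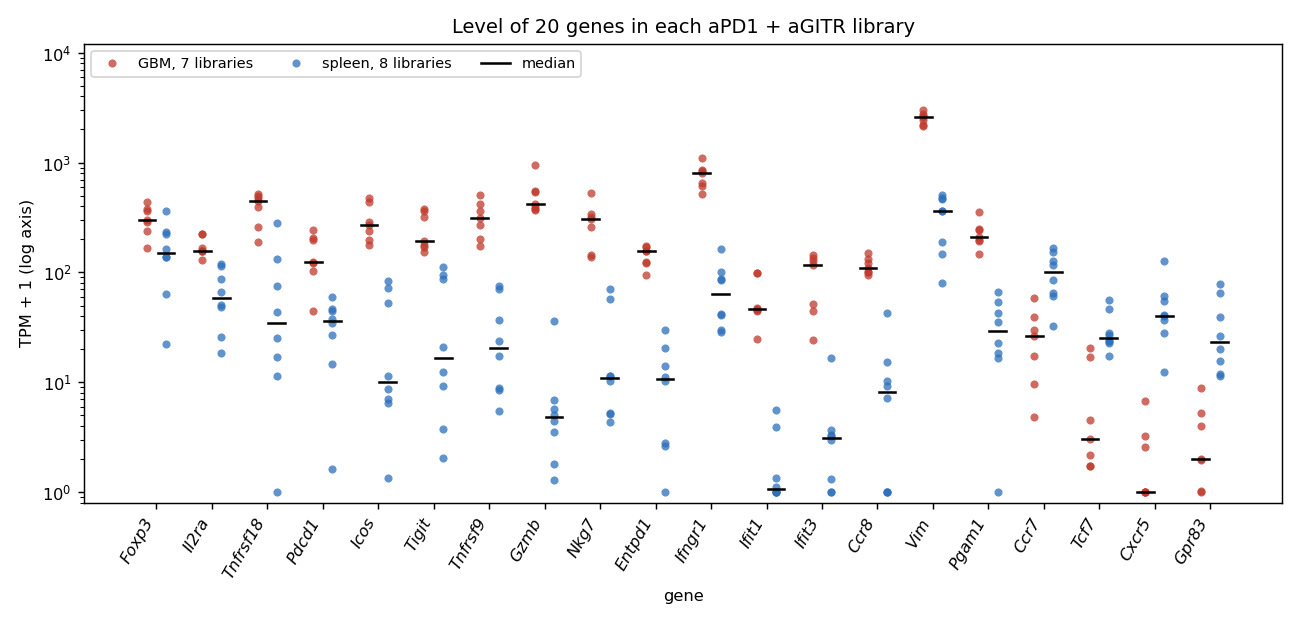
TPM + 1, on a log axis, of 20 genes in the 7 GBM (red) and 8 splenic (blue) libraries after αPD1 + αGITR, with 1 point per library and bars at the medians. *Foxp3* overlaps between the tissues, *Gzmb*, *Ifngr1*, *Ifit1* and *Vim* are higher in every GBM library than in any splenic one, and *Cxcr5* and *Gpr83* are lower in every GBM library.

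Among co-stimulatory and inhibitory receptors, 9 of 15 listed genes of the CD28 and checkpoint families passed the filter, 6 were called higher (66.7%, against 15.8% of all genes) and none lower, with a median of 2.47 (1.76 under quantile normalization, where 5 were called higher and 1 lower). Without the 4 splenic libraries 3 were called higher and the median was 1.5. Through GBM alone 2 had entered, and both were called. *Icos*, a CD28 family co-stimulator (chromosome 1, 60977927 to 61000320), was listed at 177 to 473 TPM in GBM (median 272) and at 0.350 to 83.4 TPM in spleen (median 9.10). For *Icos* the log2 difference was 4.27 (SE 0.71, adjusted p = 0.000651). *Tigit*, an inhibitory receptor, was listed at 151 to 379.6 TPM in GBM (median 194) and at 1.05 to 112 TPM in spleen (median 15.6). For *Tigit* the log2 difference was 3.63 (SE 0.74, adjusted p = 0.00337). Neither overlapped between the tissues. *Lag3*, an MHC class II-binding inhibitory receptor gene, was listed at 22.6 to 372 TPM in GBM (median 267) and at 7.98 to 179 TPM in spleen (median 47.9). Here the lowest GBM library lay inside the splenic range and 5 of 7 exceeded that range, with a log2 difference of 1.82 (SE 0.66, adjusted p = 0.0558), and *Lag3* was called without splenic library 73_a (1.99), splenic library 80_a (2.10), GBM library 73_b (2.06) or GBM library 73_a (2.28). Of 12 genes of the TNF receptor family 10 passed, 5 were called higher (50%) and none lower, with a median of 1.84 and 5 calls under quantile normalization as well. *Tnfrsf9*, which encodes 4-1BB (chromosome 4, 150914562 to 150946102), was listed at 172 to 503 TPM in GBM (median 314) and at 4.5 to 74.5 TPM in spleen (median 19.5). For *Tnfrsf9* the log2 difference was 3.87 (SE 0.57, adjusted p = 0.000236). *Tnfrsf4*, which encodes OX40 and neighbours *Tnfrsf18* on chromosome 4, was listed at 296 to 747 TPM in GBM (median 629) and at 2.62 to 289 TPM in spleen (median 66.9). For *Tnfrsf4* the log2 difference was 3.45 (SE 0.70, adjusted p = 0.00303). *Tnfrsf1b*, which encodes TNF receptor 2, was listed at 145 to 369.8 TPM in GBM (median 167) and at 11.2 to 75.5 TPM in spleen (median 45.9). For *Tnfrsf1b* the log2 difference was 2.40 (SE 0.48, adjusted p = 0.00297). The 3 genes had no overlap between tissues.

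The NF-κB and TRAF genes that carry the signal of these receptors had a median near that of all genes. Of 24 listed genes 22 passed, 5 were called higher (22.7%, against 15.8% of all genes) and none lower, and the median was 0.82 against 0.95. Under quantile normalization 1 was called and the median was 0.08. *Bcl3*, an atypical IκB protein gene, was listed at 48.9 to 135 TPM in GBM (median 80.7) and at 0 to 57.0 TPM in spleen (median 7.97), with a log2 difference of 3.26 (SE 0.70, adjusted p = 0.00468), and kept its call in every alternative in which it was tested. *Nfkb2* and *Nfkbie*, which encode the p100 precursor and IκBε, had log2 differences of 2.05 and 2.45 (adjusted p = 0.0390 and 0.0191). Both lost their calls under quantile normalization (1.15 and 1.78), *Nfkbie* also without GBM library 70_b (2.23) and without the 4 splenic libraries (1.61), and *Nfkb2* upon omission of any of 9 single libraries, its log2 difference ranging from 1.58 to 2.34 over all 15 omissions.

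Chemokine receptors moved in both directions. Of 17 listed receptors 11 passed, 7 were called higher (63.6%, against 15.8% of all genes) and 2 lower (against 1.61%), with a median of 2.85 (5 higher and 3 lower under quantile normalization). All 4 that had entered through GBM alone were called higher, as were 3 of the other 7. *Ccr8*, a receptor of tumor Treg cells (chromosome 9, 120092114 to 120094906), was listed at 93.7 to 151 TPM in GBM (median 109) and at 0 to 42.02 TPM in spleen (median 7.16). For *Ccr8* the log2 difference was 4.49 (SE 0.72, adjusted p = 0.000402). *Cxcr6*, a tissue-retention receptor gene, was listed at 10.3 to 65.4 TPM in GBM (median 34.4) and at 0 to 19.5 TPM in spleen (median 0.620). For *Cxcr6* the log2 difference was 3.80 (SE 0.67, adjusted p = 0.00114). The largest fall of a gene whose groups did not overlap was that of *Cxcr5*, which directs lymphocytes to B cell follicles (chromosome 9, 44511787 to 44561877). It was listed at 0 to 5.75 TPM in GBM (median 0) and at 11.4 to 125 TPM in spleen (median 39.3). For *Cxcr5* the log2 difference was -4.54 (SE 0.60, adjusted p = 8.44e-05). *Gpr83*, a G protein-coupled receptor gene of Treg cells (chromosome 9, 14860210 to 14870789), was listed at 0 to 7.82 TPM in GBM (median 0.990) and at 10.5 to 77.3 TPM in spleen (median 22.4). For *Gpr83* the log2 difference was -3.36 (SE 0.63, adjusted p = 0.00183). Both fell in every alternative in which they were tested, and they were the only named genes among the 3 lower genes without overlap, the remaining one being a predicted transcript. Of 12 chemokines 5 passed the filter and 4 were called higher. All except *Ccl5* had entered through GBM alone, so that the filter set the direction of their mean TPM. *Ccl4*, an inflammatory chemokine gene, was listed at 1.85 to 294 TPM in GBM (median 71.3) and at 0 to 2.90 TPM in spleen (median 0), with a log2 difference of 5.14 (SE 0.77, adjusted p = 0.000236), and its log2 difference was 5.86 without the 2 GBM libraries high in macrophage markers. *Cxcl10* was listed at 4.15 to 32.7 TPM in GBM (median 8.07) and at 0 to 2.71 TPM in spleen (median 0). For *Cxcl10* the log2 difference was 3.19 (SE 0.66, adjusted p = 0.00355). *Ccl5* had a log2 difference of 3.35 (adjusted p = 0.00618), which was 2.55 and not called without the 4 splenic libraries (adjusted p = 0.0596).

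Genes of resting, recirculating lymphocytes were the one biological list whose median lay below 0. Of 20 listed genes 15 passed, none was called higher and 3 were called lower (against 1.61% of all genes), with a median of -0.87 against 0.95 over all genes. Relative to that shift the list stood lower still, with 9 genes called lower and a median of -1.68 under quantile normalization. *Igfbp4* was listed at 0.0400 to 126 TPM in GBM (median 0.970) and at 19.3 to 197 TPM in spleen (median 68.8). For *Igfbp4* the log2 difference was -4.19 (SE 0.82, adjusted p = 0.00249). GBM library 73_a, at 126 TPM, lay far above the other 6 GBM libraries, which held 5.50 TPM or less. *Tcf7*, which encodes the transcription factor TCF-1, was listed at 0.720 to 19.4 TPM in GBM (median 2.03) and at 16.5 to 54.8 TPM in spleen (median 24.3). For *Tcf7* the log2 difference was -2.70 (SE 0.61, adjusted p = 0.00685). *Ccr7*, the lymph node homing receptor gene, was listed at 3.79 to 57.1 TPM in GBM (median 25.3) and at 31.3 to 165 TPM in spleen (median 100.6). For *Ccr7* the log2 difference was -2.15 (SE 0.56, adjusted p = 0.0152). In 6, 6 and 5 of 7 GBM libraries these 3 genes lay below every splenic library. The other 12 members ran from -1.64 to 0.93 and were not called.

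Transcription factors of effector Treg cells divided. Of 20 listed genes 16 passed, 7 were called higher (43.8%, against 15.8% of all genes) and 1 lower, with a median of 1.48 (6 higher, 1 lower and 0.76 under quantile normalization). Through GBM alone 5 had entered, of which 4 were called. *Nfil3*, a basic leucine zipper factor (chromosome 13, 52967209 to 52981073), was listed at 6.97 to 74.1 TPM in GBM (median 57.2) and at 0 to 6.12 TPM in spleen (median 0.420). For *Nfil3* the log2 difference was 4.54 (SE 0.62, adjusted p = 9.71e-05). *Id2*, an inhibitor of E proteins, was listed at 54.5 to 186 TPM in GBM (median 88.1) and at 0.970 to 38.0 TPM in spleen (median 10.2). For *Id2* the log2 difference was 2.98 (SE 0.59, adjusted p = 0.00272). *Maf* was listed at 12.2 to 38.1 TPM in GBM (median 27.4) and at 1.17 to 16.8 TPM in spleen (median 3.00). For *Maf* the log2 difference was 2.61 (SE 0.54, adjusted p = 0.00360). The 1 member called lower was *Id3*, the relative of *Id2*, named after its values were seen. *Id3* was listed at 0 to 35.5 TPM in GBM (median 12.5) and at 6.89 to 95.2 TPM in spleen (median 54.6), with a log2 difference of -2.16 (SE 0.71, adjusted p = 0.0394), so the 2 inhibitors of E proteins moved in opposite directions, although *Id3* was not called without the 4 splenic libraries (-2.73, adjusted p = 0.0542).

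Treg identity genes and suppressive mediators were called higher in part. Of 18 identity genes, all of which passed, 10 were called higher (55.6%, against 15.8% of all genes) and 1, *Gpr83*, lower, with a median of 1.55 (5 higher, 2 lower and 0.98 under quantile normalization, and 5 higher, 1 lower and 0.98 without the 4 splenic libraries). *Capg*, an actin-capping protein gene, was listed at 422 to 908 TPM in GBM (median 597) and at 8.15 to 258 TPM in spleen (median 84.8). For *Capg* the log2 difference was 3.19 (SE 0.59, adjusted p = 0.00176). The lineage factor *Foxp3* was among the 7 members not called, while *Ctla4* and *Ikzf2*, which encode CTLA-4 and Helios, had log2 differences of 2.67 and 1.82 (adjusted p = 0.00377 and 0.0345) and were named after their values were seen. Without the 4 splenic libraries neither was called (1.70 and 0.93, adjusted p = 0.0506 and 0.207), and *Ikzf2* was not under quantile normalization (1.13, adjusted p = 0.0731). Of 15 suppressive mediators 12 passed and 6 were called higher (50%), none lower, with a median of 2.45 and 6 calls without the 4 splenic libraries as well, 5 of the 12 having entered through GBM alone. *Entpd1*, which encodes CD39, an enzyme that breaks down extracellular ATP (chromosome 19, 40612366 to 40741602), was listed at 94.7 to 174 TPM in GBM (median 155) and at 0 to 28.7 TPM in spleen (median 9.72). For *Entpd1* the log2 difference was 4.29 (SE 0.63, adjusted p = 0.000235). *Fgl2*, a secreted fibrinogen-like protein gene, was listed at 28.6 to 115 TPM in GBM (median 60.5) and at 0 to 16.1 TPM in spleen (median 2.66). For *Fgl2* the log2 difference was 3.88 (SE 0.59, adjusted p = 0.000254). Both separated the tissues without overlap in these libraries.

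**Figure D4:**
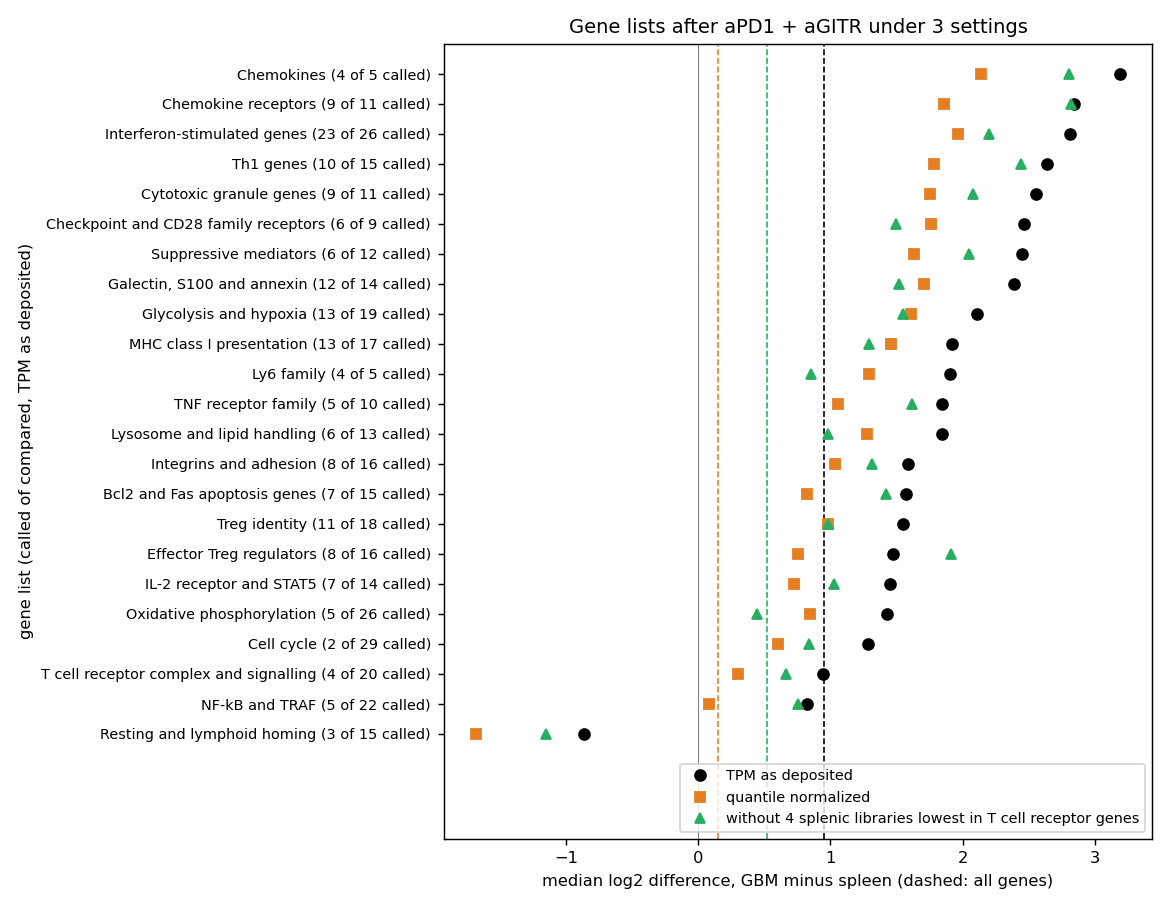
Median log2 difference of 23 gene lists between GBM and splenic Treg cells after αPD1 + αGITR, from TPM as deposited (circles), after quantile normalization (squares) and without the 4 splenic libraries lowest in T cell receptor genes (triangles), with dashed lines at the median of all genes in each setting. Chemokine, interferon-stimulated, Th1 and granule genes, many of which entered through GBM alone, lie to the right of the dashed lines under each setting, and resting and homing genes lie at -0.87, -1.68 and -1.15.

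Genes of glycolysis and hypoxia were called higher in GBM in most cases. Of 22 listed genes 19 passed, 13 were called higher (68.4%, against 15.8% of all genes) and none lower, and for 11 the tissues did not overlap, against 3.00% of all genes. Through GBM alone 3 had entered, all of them called, and of the other 16 genes 10 were called. The median over the 19 was 2.11, with 12 calls and 1.61 under quantile normalization and 11 calls and 1.55 without the 4 splenic libraries. *Pgam1*, phosphoglycerate mutase, was listed at 146 to 354 TPM in GBM (median 211) and at 0 to 66.1 TPM in spleen (median 28.2). For *Pgam1* the log2 difference was 3.39 (SE 0.67, adjusted p = 0.00254). *Slc16a3*, the lactate exporter MCT4, was listed at 24.5 to 186 TPM in GBM (median 72.6) and at 0.410 to 35.0 TPM in spleen (median 4.71). For *Slc16a3* the log2 difference was 3.78 (SE 0.65, adjusted p = 0.000872). *Bnip3*, a mitophagy receptor gene induced by hypoxia, was listed at 8.68 to 67.7 TPM in GBM (median 14.8) and at 0 to 3.95 TPM in spleen (median 0.815). For *Bnip3* the log2 difference was 3.16 (SE 0.63, adjusted p = 0.00258). The filter set the direction of the mean TPM of *Slc16a3* and *Bnip3*, whose splenic means were 7.62 and 1.53 TPM. The nuclear genes of oxidative phosphorylation differed less, with 5 of 26 called higher (19.2%), a median of 1.43 and 1 call under quantile normalization, and none was called without the 4 splenic libraries, where the median of 0.45 lay below the 0.52 of all genes. Their named members *Cox5a*, *Cox8a* and *Ndufb9* had log2 differences of 1.97, 1.90 and 1.72 (adjusted p = 0.0345, 0.0349 and 0.0345) and lost their calls upon omission of 7, 9 and 7 of the 15 single libraries.

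Galectin, S100 and annexin genes, which encode calcium- or sugar-binding proteins of activated lymphocytes, were called higher in 12 of 14 members that passed (85.7%, against 15.8% of all genes), none lower, with a median of 2.39 (9 calls and 1.70 under quantile normalization). Only 4 were called without the 4 splenic libraries, with a median of 1.52. *Vim*, the intermediate filament vimentin listed with them, was at 2145 to 2979 TPM in GBM (median 2593) and 78.6 to 503 TPM in spleen (median 361), with a log2 difference of 3.19 (SE 0.43, adjusted p = 9.71e-05). *Lgals1*, galectin-1, was listed at 272 to 739 TPM in GBM (median 488) and at 0.860 to 272 TPM in spleen (median 50.3). For *Lgals1* the log2 difference was 3.80 (SE 0.77, adjusted p = 0.00317). The 2 tissues did not overlap for either gene, though for *Lgals1* only by 271.6 against 271.9 TPM. Among 16 integrin and adhesion genes that passed, 8 were called higher (50%) and none lower, with a median of 1.59, while under quantile normalization 4 were called and the median was 1.03. *Itgav*, the integrin αV chain, was listed at 59.5 to 238 TPM in GBM (median 124) and at 0.190 to 101.4 TPM in spleen (median 7.77). For *Itgav* the log2 difference was 4.00 (SE 0.72, adjusted p = 0.00130). *Cd2* and *Cd44*, adhesion receptors of activated T cells, had log2 differences of 1.90 and 2.22 (adjusted p = 0.00816 and 0.0107), and *Cd44* was not called without the 4 splenic libraries (1.34, adjusted p = 0.0834).

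Of the Ly6 family of membrane-anchored antigens 5 of 7 genes passed, with 3 called higher (60%, against 15.8% of all genes) and 1 lower. *Ly6a*, which encodes Sca-1 (chromosome 15, 74994877 to 74998031), was listed at 347 to 782 TPM in GBM (median 669.9) and at 2.36 to 151 TPM in spleen (median 41.6). For *Ly6a* the log2 difference was 4.39 (SE 0.66, adjusted p = 0.000236). *Ly6e* and *Ly6c2* had log2 differences of 1.91 and 2.16 (adjusted p = 0.0199 and 0.0288). The call of *Ly6e* was lost without GBM library 70_a (1.75) and without the 4 splenic libraries (0.85, adjusted p = 0.161), and that of *Ly6c2* without GBM library 70_a (2.09), GBM library 70_b (1.95) or splenic library 72_b (1.88), without the 4 splenic libraries (1.66, adjusted p = 0.139) and under quantile normalization (1.30, adjusted p = 0.144). *Ly6c1*, named after its values were seen, was the member called lower, at -2.42 (adjusted p = 0.0494), and since it is nearly identical to *Ly6c2* the reads of both may have been divided between them.

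The interleukin-2 receptor and STAT5 list had 6 of 14 genes called higher (42.9%, against 15.8% of all genes) and 1 lower, with a median of 1.45 (3 higher and 0.72 under quantile normalization, and 3 higher and 1.02 without the 4 splenic libraries). *Socs2*, *Socs1* and *Cish*, feedback inhibitors of cytokine signalling, were higher. *Socs2* was listed at 156 to 302 TPM in GBM (median 244) and at 2.12 to 197 TPM in spleen (median 26.2). For *Socs2* the log2 difference was 2.97 (SE 0.61, adjusted p = 0.00355). *Cish* was listed at 180.2 to 395 TPM in GBM (median 244) and at 19.2 to 195 TPM in spleen (median 45.5). For *Cish* the log2 difference was 2.39 (SE 0.50, adjusted p = 0.00428). *Socs1* was listed at 193 to 605 TPM in GBM (median 281) and at 0.630 to 157 TPM in spleen (median 80.5), with a log2 difference of 2.68 (SE 0.72, adjusted p = 0.0178). Its groups did not overlap, but *Socs1* was not called with TMM-type factors (1.89, adjusted p = 0.134), after rescaling without the most abundant features (2.42, adjusted p = 0.0690), with no filter (adjusted p = 0.135) or with an ordinary linear model (adjusted p = 0.0573). Genes of apoptosis were called higher in 6 of 15 members that passed (40%, against 15.8% of all genes) and lower in 1, with 2 higher and 1 lower under quantile normalization. Through GBM alone 6 of the 15 had entered, of which 3 were called. *Bcl2*, which restrains apoptosis and is listed here and as a STAT5 target, was the member that fell. It was listed at 0.280 to 22.0 TPM in GBM (median 7.71) and at 9.82 to 112 TPM in spleen (median 44.3), with a log2 difference of -2.46 (SE 0.67, adjusted p = 0.0190), and it was not called without the 4 splenic libraries (-2.76, adjusted p = 0.0541). *Xiap*, a caspase inhibitor gene, rose without overlap, with a log2 difference of 2.67 (SE 0.58, adjusted p = 0.00538).

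Lysosomal genes were called higher in 6 of 13 members (46.2%, against 15.8% of all genes), with a median of 1.84, and none was called without the 4 splenic libraries, where the median was 0.98. The named members *Grn*, *Ctsz* and *Ctsd* were listed at up to 432, 471 and 726 TPM in GBM, with log2 differences of 2.58, 2.38 and 2.05 (adjusted p = 0.0168, 0.0116 and 0.0178). Without GBM libraries 73_a and 74_a, which were high in macrophage markers, *Grn* (2.20, adjusted p = 0.0748) and *Ctsd* (1.73, adjusted p = 0.0833) lost their calls while *Ctsz* kept it (2.26, adjusted p = 0.0464). That omission lowered the calls over all genes from 1310 to 360, and the part of macrophages in these genes was not tested.

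Few genes of the cell cycle were called. Of 29 that passed 2 were called higher (6.9%, against 15.8% of all genes) and none lower, with a median of 1.28, and none was called under quantile normalization, where the median was 0.61. The 2 were *Stmn1* (2.74, adjusted p = 0.0382) and *Mcm4* (2.21, adjusted p = 0.0486), whose calls were lost upon omission of 10 and 12 of the 15 single libraries. Of 20 genes of the T cell receptor and its signalling 4 were called higher (20%) and none lower, with a median of 0.94 against 0.95. *Trac*, the receptor's α chain constant segment, was listed at 476 to 1399 TPM in GBM (median 637) and at 52.7 to 495 TPM in spleen (median 140.1), with a log2 difference of 2.23 (SE 0.49, adjusted p = 0.00598). *Cd3e* and *Cd247* were called at 1.57 and 1.44 (adjusted p = 0.0469 and 0.0394) but in each case no longer upon omission of any of 11 single libraries.

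Among lists that track handling and RNA quality, housekeeping genes had a median log2 difference of 1.19 with 5 of 14 called higher (35.7%), chaperones 1.22 with 1 of 14 (7.14%), and immediate early genes 0.52 with 2 of 13 (15.4%), against 15.8% of all genes. The median of immediate early genes was -0.25 under quantile normalization. Markers of other cells were called in 1 case beyond the erythroid and macrophage lists, the immunoglobulin gene *Igkc* (log2 difference 2.39, adjusted p = 0.0458). Medians were below 1 TPM in both tissues for 0 of 2 CD8 T cell and 7 of 13 B cell markers. The same held for 8 of 10 NK cell, 9 of 11 neutrophil and 11 of 18 neuronal and glial markers. It held also for 9 of 12 endothelial and stromal and 4 of 14 dendritic cell and MHC class II markers. Among the last, *Cd74* had a GBM median of 26.3 TPM and a splenic median of 23.9 TPM. The part of these differences in the results above was not tested.

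Comparing the tissues after IgG2a, in 5 GBM and 7 splenic libraries that none of the above share, gave 42 called genes of 7380 (0.569%), and the median standard error was 0.94 against 0.66 after αPD1 + αGITR. All but 1 of these 42 genes had the same direction after αPD1 + αGITR, and 37 were called in both, which is 88.1% of the IgG2a calls and 2.82% of the αPD1 + αGITR calls. Of 1141 genes called after αPD1 + αGITR and tested after IgG2a, 926 (81.2%) had the same sign there, against 61.1% of all genes tested in both. Among them, the log2 differences after IgG2a were 7.52 for *Gzmb* (SE 0.80), 4.72 for *Runx2* (SE 0.85), 4.39 for *Icos* (SE 0.80) and -4.33 for *Gpr83* (SE 0.85). In the limma interaction fit their differences from the values after αPD1 + αGITR had unadjusted p-values of 0.344, 0.920, 0.908 and 0.327. The 5 genes called after IgG2a alone were *Lag3*, *Pik3ip1*, *Asap1*, *Atp1b1* and the repeat-derived feature *Mir6236*, of which the last changed sign, from -4.78 (SE 1.17) to 2.79 (SE 1.26).

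**Figure D5:**
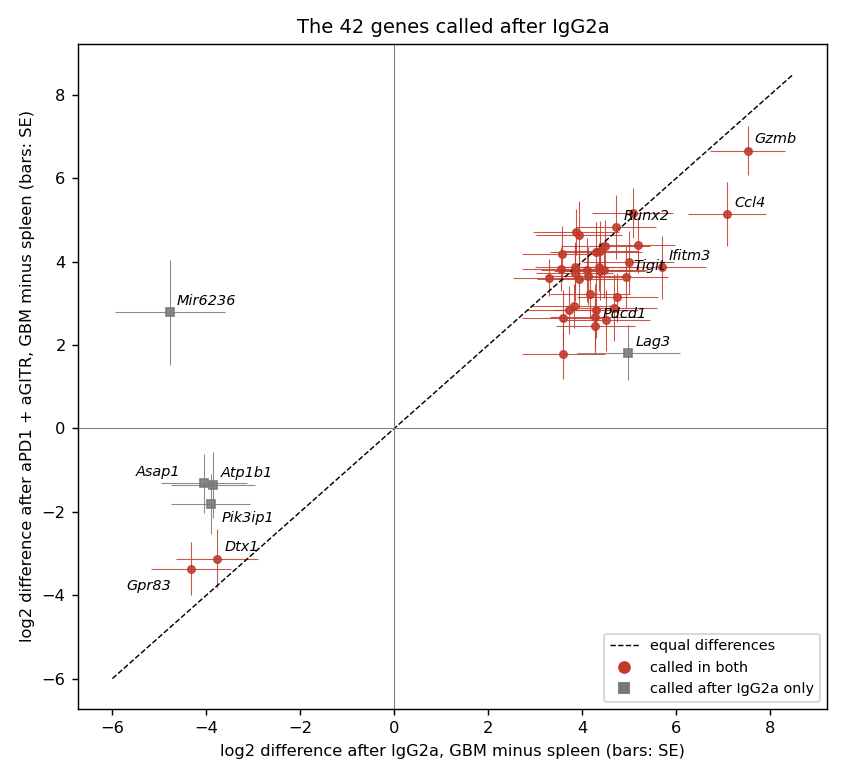
Log2 difference between GBM and splenic Treg cells after αPD1 + αGITR against that after IgG2a for the 42 genes called after IgG2a, with bars of 1 standard error and the dashed line at equal differences. The 37 genes called in both (circles) have the same direction on both axes by definition, and of the 42 genes *Mir6236* is the one whose sign differs.

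Whether the difference between the tissues itself depended on treatment was tested as an interaction over all 4 groups. No gene of 8687 passed an adjusted p of 0.05 in limma (lowest 0.119), and 1056 had an unadjusted p under 0.05 (12.2%). With no pooled variance (an ordinary linear model per gene) none passed either. The lowest p-values over all genes, of genes named after their values were seen, were those of *Vill* (4.61, SE 0.94, unadjusted p = 1.89e-05), *Apol9a* (5.13, SE 1.07, unadjusted p = 2.74e-05) and *Mlxip* (5.21, SE 1.13, unadjusted p = 4.70e-05), with adjusted p of 0.119, 0.119 and 0.136 in limma. Among genes of the biological lists and the largest changes, *Entpd1* had the lowest p with a larger difference after αPD1 + αGITR, an interaction of 3.51 (SE 1.19, unadjusted p = 0.00562, adjusted p = 0.314), its log2 difference being 4.29 after treatment and 0.78 after IgG2a. *Apol9b*, which may share reads with *Apol9a*, followed with 3.68 (SE 1.27, unadjusted p = 0.00623, adjusted p = 0.314), and *Lipa*, a lysosomal lipase gene, with 2.60 (SE 0.92, unadjusted p = 0.00729, adjusted p = 0.314). In the other direction *Cxcr5* had -2.60 (SE 1.00, unadjusted p = 0.0130, adjusted p = 0.325), with -4.54 after treatment and -1.95 after IgG2a. *Lag3* had -3.17 (SE 1.35, unadjusted p = 0.0241, adjusted p = 0.345), its log2 difference of 4.98 after IgG2a (adjusted p = 0.0226) standing at 1.82 after αPD1 + αGITR, and *Bhlhe40*, a transcription factor of activated T cells, had -2.23 (SE 0.95, unadjusted p = 0.0241, adjusted p = 0.345). None of these 6 differences between treatments passed after adjustment over all genes, and the wider errors after IgG2a limit what the test can show.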

How the data were processed

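Treg libraries were made by Smart-Seq2 and sequenced on a NextSeq500, and the authors aligned reads to mm10 with Tophat and computed TPM with RSEM. The submitters' processing notes name TopHat2 and bcl2fastq. The deposited values are TPM + 1, so 1 was subtracted to obtain TPM. Counts were not used here, so the depth of each library is unknown and no counting interval is given. For 1 column of values no label gave a sample, and it was not used. Genes with a mean TPM above 10 in either group were compared on log2(TPM + 1), pseudocount 1, which understates changes of low genes. The test was limma 3.58.1 in R 4.3.3 (linear model with a mean-variance trend, two-sided, Benjamini-Hochberg adjustment over all genes compared, called at an adjusted p under 0.05), after a check on simulated data. Single values were also given an exact permutation test over libraries. Positions were matched by symbol to GENCODE (GRCm38) and promoters to RefSeq (GRCm38.p6).

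The genes named were the 10 largest rises and the largest falls among called genes without overlap (predicted and clone-named genes left out), the 3 genes of lowest p called in each list, the genes of the sort and the antibody targets, and, among genes of the lists and the largest changes, the 3 genes of lowest interaction p in each direction. Others are marked as chosen after their values were seen. Some genes are not reported here. Members and lists were chosen with earlier results of these data known. Alternatives covered the pseudocount, the filters, the scaling, the model, replicate numbers and left-out libraries.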

Additional observations from a re-analysis of the deposited data

Results flagged for a closer look

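Among 162 groups of libraries looked at for the named genes and the marker sums, 13 held a library far from the rest of its group. Distance was the gap to the nearest library divided by the range of the group, both on log2(TPM + 1). The values printed beside it are in TPM. Chance flags about 1 in 20 groups. In splenic libraries after αPD1 + αGITR, library 73_a stood high for *Cxcl10* (2.71 TPM against 0.1 TPM for the next, 0.927 of the range) and for *Mx1* (3.8 against 0.35 TPM, 0.809). Library 74_a stood high for *Ifit3* (15.8 against 2.65 TPM, 0.541), *Maf* (16.8 against 4.39 TPM, 0.567) and *Nfil3* (6.12 against 1.51 TPM, 0.531). Library 72_b stood low for *Pdcd1* (0.62 against 13.7 TPM, 0.61) and *Pgam1* (0 against 15.8 TPM, 0.671), library 70_c for *Cxcr3* (0.65 against 10.1 TPM, 0.6) and library 72_c for *Socs1* (0.63 against 17.5 TPM, 0.531). In GBM, library 73_a stood high for *Grn* (432 against 124 TPM, 0.569) and *Igfbp4* (126 against 5.5 TPM, 0.619), library 73_b for *Gzmb* (949 against 548 TPM, 0.584), and library 70_b stood low for *Nfil3* (6.97 against 28.7 TPM, 0.587).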

How the results depend on the processing

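After αPD1 + αGITR the 1310 calls became 678 with a pseudocount of 0.1, 256 with no filter, 565 when the minimum applied to each group, 850 with a limit on the coefficient of variation, 599 with TMM-type factors, 596 after rescaling without the top features, 811 with a covariate, 2123 with library weights, 813 with an ordinary linear model, 724 fitted over all 4 groups, 254 on averaged libraries and 495 with the replicate block. They were 607 without the 4 splenic libraries lowest in T cell receptor genes, 3147 without libraries high in erythroid markers and 360 without those high in macrophage markers, settings chosen after seeing the data. Leaving out single libraries gave 591 (without GBM 70_b) to 2279 (without splenic 73_a). The 42 calls after IgG2a became 12 and 70 with pseudocounts of 0.1 and 10, 6 with no filter, 9 with the filter in every group, 7 with the variation limit, 102 with quantile normalization, 262 with weights, 25 with the ordinary model, 140 over all 4 groups and 2 with the replicate block, and 23 to 75 without single libraries. The interaction had 0 to 2 calls without single libraries. Signs turned for *Cd4* (-0.18, TMM-type), *Il7r* (-0.46 quantile, -0.22 TMM-type, -0.045 averaged, -0.13 without the 4 splenic libraries), *Lipa* (-0.038 quantile, -0.14 TMM-type), immediate early genes (-0.25 and -0.27) and MHC class II genes (-0.10 without the 4 libraries). The causes were not tested. Deviations from the tissue mean, averaged by label number, were also correlated between the tissues. Correlations of same-numbered deviations were -0.0083 to -0.159, and no number in GBM correlated best with its own number in spleen. So few numbers, in libraries that differ in other cells, cannot show whether same-numbered libraries share a mouse or batch. Sequencing depth is unknown, so low TPM values carry an unknown counting error.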
